A study of Mus musculus with 2 samples.

Results

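SNARE proteins and the regulators of granule secretion were examined in mouse megakaryocytes, the bone marrow and fetal liver cells that shed platelets. The genes were a list of 37 symbols, chosen by what their proteins do: VAMP proteins, syntaxins, SNAP proteins, Munc18 and Munc13 proteins, NSF with its adaptors, RAB27 GTPases with their effectors, and SNAREs of the Golgi and endosomes. A row was found for 36 of the 37 among 43346 Ensembl genes, and Vamp7 was not analysed here. The data were 2 RNA-seq libraries of polyadenylated RNA, read in paired end mode. Per the labels, both came from primary megakaryocytes of mouse embryos at 14.5 days, with males and females pooled. The labels name no treatment, genotype or strain. Both libraries belong to 1 group and are numbered as biological replicates 1 and 2, but their labels point to a single biosample and donor, and part of the spread between them may be technical. No condition can be compared, and every ratio below sets 1 library against the other, with no replicate check and no p-value. The expected counts, which are the authors' estimates of fragments per gene, came to 42099208 in replicate 1, which was 18.5 times deeper than replicate 2 with 2275920. Where a gene had 0 counts, up to 3 counts remain possible, which is 0.0713 CPM in replicate 1 and 1.32 CPM in replicate 2 (CPM are counts scaled to the total of a library).

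A SNARE complex joins a vesicle to its target membrane by zipping helices from both sides into a bundle, with an R-SNARE usually on the vesicle and Qa, Qb and Qc helices usually on the target. SNAP proteins supply the Qb and Qc helices in 1 chain and are called Qbc. Munc18 proteins hold and template syntaxins, Munc13 proteins tether and prime the vesicle, RAB27 brings granules to the plasma membrane, and NSF with its SNAP adaptors takes spent complexes apart. In platelets this machinery releases alpha granules, dense granules and lysosomes, and human loss of STX11, STXBP2, UNC13D or RAB27A causes familial immune disorders in which secretion by cytotoxic cells, and for some of these genes by platelets, is impaired.

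The letters R and Q name the central residue of the helix, an arginine in R-SNAREs and a glutamine in Q-SNAREs. To show what separates the classes counted below, the coding sequences of the members were translated and aligned within each class. Exactly 1 column held the naming residue in all 7 R-SNAREs, and exactly 1 did so in all 9 Qa syntaxins. The windows below give 15 codons around that residue from GENCODE M21 on GRCm38, 5′ to 3′ on the coding strand, with the central codon in capitals, for the most abundant members of each class and for Vamp3 and Stx2. The window of Vamp2 lies at chr11:69089752-69089796 (+), that of Vamp3 at chr4:151051010-151051054 (-), that of Vamp8 at chr6:72388292-72388336 (-) and that of Stx11 at chr10:12941244-12941288 (-), each within 1 coding exon. The windows of Stx4a (chr7:127846602-127848408, +) and Stx2 (chr5:128988892-128990987, -) each cross 1 intron, which is left out.
Vamp2: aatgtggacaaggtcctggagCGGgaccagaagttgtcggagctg
Vamp3: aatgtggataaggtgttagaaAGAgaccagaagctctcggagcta
Vamp8: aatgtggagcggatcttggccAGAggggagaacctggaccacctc
Stx11: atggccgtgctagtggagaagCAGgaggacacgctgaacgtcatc
Stx4a: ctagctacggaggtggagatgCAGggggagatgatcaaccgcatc
Stx2: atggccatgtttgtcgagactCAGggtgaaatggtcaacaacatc
Vamp2 and Vamp3 shared 35 of the 45 bases (77.8%), and Vamp2 and Vamp8 shared 25 (55.6%). Stx11 and Stx2 shared 31 of 45 (68.9%), and Stx11 and Stx4a shared 29 (64.4%). Over all pairs the windows were 37.8% to 77.8% identical among R-SNAREs and 37.8% to 80% among Qa syntaxins.

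Levels are given in TPM, a value scaled to transcript length and to library depth, which allows different genes to be set side by side. A mean of at least 1 TPM over both libraries was reached by 33 of the 36 members. Among all 43346 genes 22.7% reached it. The level was met in both libraries by 29 members. The 33 detected members had a median of 16.5 TPM, beside 10.2 TPM for all 9858 detected genes, and 6 of them (18.2%, beside 13.1% of all detected genes) stood at a mean of 100 TPM or more. Those 6 were Stxbp2, Unc13d, Napa, Stx6, Vamp2 and Rab27b. Stxbp2, Unc13d and Napa alone held 46.5% of the members' summed TPM in replicate 1 and 62.5% in replicate 2. The summed TPM of all members was nearly equal, at 2193 and 2077. The lowest detected members were Stx7 at a mean of 1.48 TPM and Vamp3 at 1.56. Just under the level stood Sytl4 at 0.91, Gosr1 at 0.56 and Stx3 at 0.265, and each of these had a count of 0 in replicate 2.

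**Figure D1:**
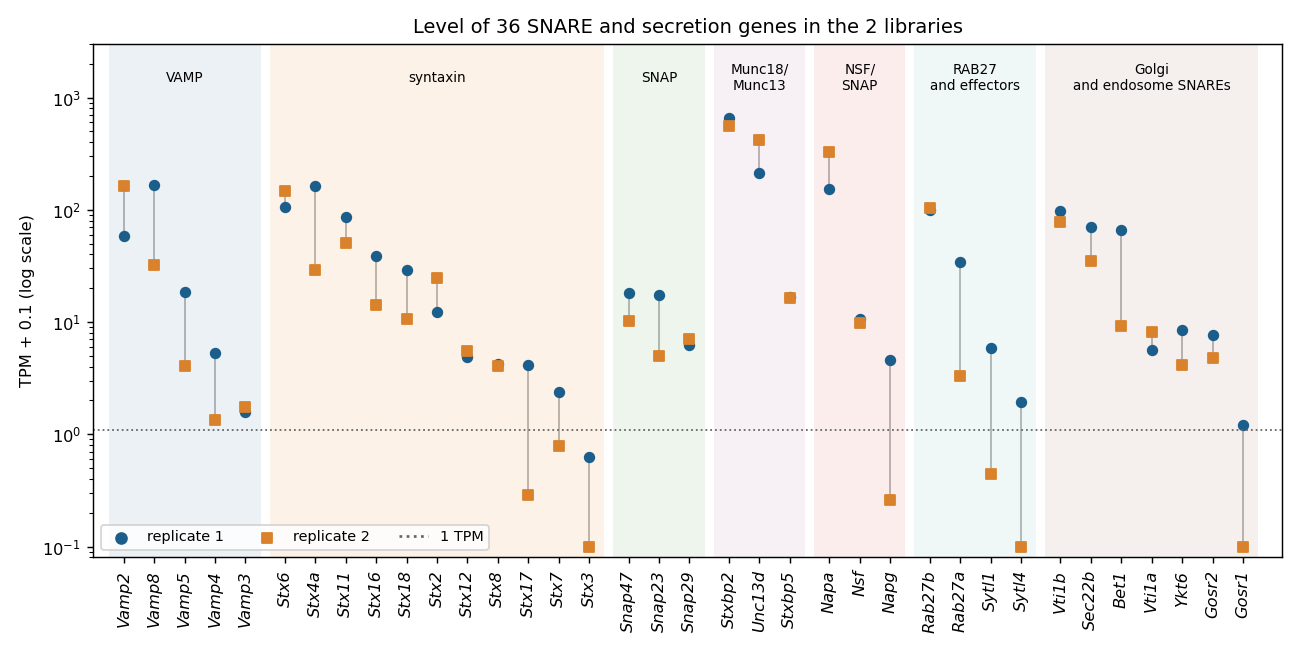
TPM plus 0.1 (log axis) of the 36 members, grouped by role and ordered by mean level within a role, with circles for replicate 1 and squares for replicate 2. The dotted line marks 1 TPM. Stxbp2, Unc13d and Napa have the highest means, Stx3, Sytl4 and Gosr1 are listed at 0 in replicate 2, and Vamp2 and Vamp8 exchange places between the libraries.

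The vesicle R-SNAREs of the VAMP group were led by a different gene in each library. Vamp8, the main vesicle SNARE of platelet granule release, was listed at 167 TPM in replicate 1 and 32.0 TPM in replicate 2. Vamp2, the vesicle SNARE of synapses, which is also present in blood cells, was listed at 58.9 TPM and 162 TPM. Vamp8 was thus 2.84 times the level of Vamp2 in replicate 1, and Vamp2 was 5.07 times the level of Vamp8 in replicate 2. On the scale of counts adjusted by TMM (a scaling factor that balances the bulk of genes between libraries), Vamp2 was 2.79-fold higher in replicate 2, with an exact 95% interval of 2.48 to 3.13, and Vamp8 was 4.53-fold lower, with an interval of 3.32 to 6.35. Such intervals reflect counting error alone, because reads that carry no molecular identifier need not be separate molecules. Both directions held under each of 4 other scalings, between 2.06 and 2.86 for the Vamp2 ratio and between 0.163 and 0.234 for the Vamp8 ratio.

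Vamp5, a short VAMP first described in muscle, lies 4754 bases from Vamp8 on chromosome 6, and no other pair of members lies closer. It was listed at 18.5 TPM in replicate 1 and 3.95 TPM in replicate 2, while its scaled count was 3.98-fold lower in replicate 2 (interval 2.21 to 7.99), the same direction as its neighbour. Vamp3, the endosomal VAMP called cellubrevin, was low and alike in both libraries at 1.49 and 1.64 TPM, from 116 and 6 counts. Vamp4, a VAMP of the trans Golgi network, was listed at 5.18 and 1.23 TPM from 167 and 3 counts, too few for a call. Its ratio of scaled counts was 0.45, with an interval of 0.0919 to 1.34.

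The Vamp2 difference was carried mainly by 1 annotated form. Vamp2-202, whose coding part is 141% as long as that of the principal form, held 38.7% of the gene's TPM in replicate 1 and 69.4% in replicate 2. Its scaled count was 5.79-fold higher in replicate 2 (4.95 to 6.76), while that of the principal form Vamp2-201 was 1.42-fold higher (1.14 to 1.72). Vamp8 came almost wholly from its full coding form, at 99.5% and 100% of its TPM. The division of fragments between forms is an estimate of the authors' quantifier, and the counting intervals do not cover its error.

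Among the plasma membrane syntaxins, Stx11 and Stx4a had the highest mean TPM. Stx11, a syntaxin without a membrane anchor that acts in platelet and lymphocyte granule release, was listed at 86.7 TPM in replicate 1 and 50.2 TPM in replicate 2, while its scaled count was within 2-fold, at a ratio of 0.681 (0.588 to 0.784). Stx4a, the mouse syntaxin 4 of the plasma membrane, was listed at 162 and 28.7 TPM, and its scaled count was 5.28-fold lower in replicate 2 (4.01 to 7.10). Replicate 1 therefore held 1.87 times as much Stx4a as Stx11 per transcript length, and replicate 2 held 1.75 times as much Stx11 as Stx4a. Stx2, another plasma membrane syntaxin, went the other way, from 12.2 TPM in replicate 1 to 24.4 TPM in replicate 2, 3-fold higher in scaled counts (2.46 to 3.64). Most of it was Stx2-202, with 68.4% of the gene's count in replicate 1 and 94.8% in replicate 2. Stx3, the apical syntaxin of epithelia, was listed at 0.53 TPM from 48 counts in replicate 1 and at 0 in replicate 2, where an equal level would give 1.91 counts, so no difference was detectable at this depth.

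The other syntaxins act on endosomes and internal membranes. Stx12, a syntaxin of recycling endosomes also known as syntaxin 13, was listed at 4.76 and 5.41 TPM in replicates 1 and 2. Stx7 and Stx8, partners in late endosome fusion, were listed at 2.28 and 0.69 TPM and at 4.15 and 3.97 TPM. Stx8 was 2.9-fold lower in scaled counts (1.23 to 9), from 5 counts in replicate 2, although its TPM hardly differed, with a TPM ratio of 0.957. Stx17, the autophagosome syntaxin, was listed at 4.03 and 0.19 TPM, from 274 and 2 counts, a ratio of scaled counts of 0.183 (0.022 to 0.667). Stx18, which works in traffic back to the endoplasmic reticulum, was listed at 29.0 and 10.5 TPM, 2.17-fold lower in scaled counts (1.5 to 3.28).

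Stx6 and Stx16 act together with Vti1a in traffic to the trans Golgi network. Stx6, the Qc member of that set, was listed at 106 TPM in replicate 1 and 147 TPM in replicate 2, the highest mean of the syntaxin group, but most of it came from a form with no annotated coding sequence, described below. Stx16, the Qa member, was listed at 39.0 and 14.0 TPM. Its TPM ratio was 0.358 while its ratio of scaled counts was 1.28 (1.03 to 1.58), so the direction depends on the scale. In replicate 1 the short partial forms Stx16-204 and Stx16-203 held 44.7% and 29.4% of its TPM but 19.3% and 2.47% of its count, and both were listed at 0 in replicate 2.

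The Qbc group, the plasma membrane and endosomal SNAP proteins, had the lowest summed TPM of the 5 SNARE classes over all forms, at 41.4 and 21.9 TPM. Over full coding forms alone the Qc class was lowest, at 14.6 and 10.4 TPM, beside 28.4 and 17.1 TPM for Qbc. Snap23, the main SNAP protein of platelets, was listed at 17.4 TPM in replicate 1 and 4.84 TPM in replicate 2, where it rested on 3 counts. Its ratio of scaled counts was 0.0977 (0.0201 to 0.286). All 3 of those counts were given to the partial form Snap23-209, so the full coding forms stood at 4.35 TPM in replicate 1 and at 0 in replicate 2. Snap47 was listed at 17.96 and 10.2 TPM, and its scaled count was within 2-fold at a ratio of 0.667 (0.457 to 0.942). Snap29, which works on endosomes and autophagosomes, was even between the libraries at 6.08 and 6.89 TPM. Per transcript length, Snap47 thus stood at or above Snap23 in both libraries, although 307 exon bases of Snap47 overlap Jmjd4 on the opposite strand, a gene listed at 2.46 and 3.71 TPM.

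The make-up of each SNARE class was taken as the share of each member in the summed TPM of its class. In the R class, with a sum of 330 TPM in the first library and 240 TPM in the second, Vamp8 held 50.7% and 13.3% and Vamp2 held 17.8% and 67.6%. Sec22b, mostly in a partial form described below, held 21.3% and 14.6%. In the Qa class, which summed to 340 and 134 TPM, Stx4a held 47.6% and 21.4%, Stx11 held 25.5% and 37.5%, and Stx2 held 3.58% and 18.2%. By TPM over all forms, Stx4a and Stx11 were thus the leading Qa members in both libraries, in opposite order. Over full coding forms Stx4a held 42.2% and 15.6%, Stx11 held 34.8% and 40.2%, and Stx2 held 3.5% and 19.5%. Stx2 thus stood above Stx4a in replicate 2 on that measure. By counts Stx11 was above Stx4a in both libraries, at 7254 and 197 beside 6747 and 51. In the Qc class Stx6 held 60% and 91.8% and Bet1 held 37.6% and 5.69%. In the Qb class Vti1b held 87.4% and 85.9%. In the Qbc class Snap47 held 43.4% and 46.4%, Snap23 held 42% and 22.1%, and Snap29 held 14.7% and 31.5%. When only full coding forms were summed, Vamp8 held 68.4% and 17.6% of the R class and Vamp2 held 18.5% and 76.5%, while Vti1b held 83.6% and 40.3% of the Qb class.

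**Figure D2:**
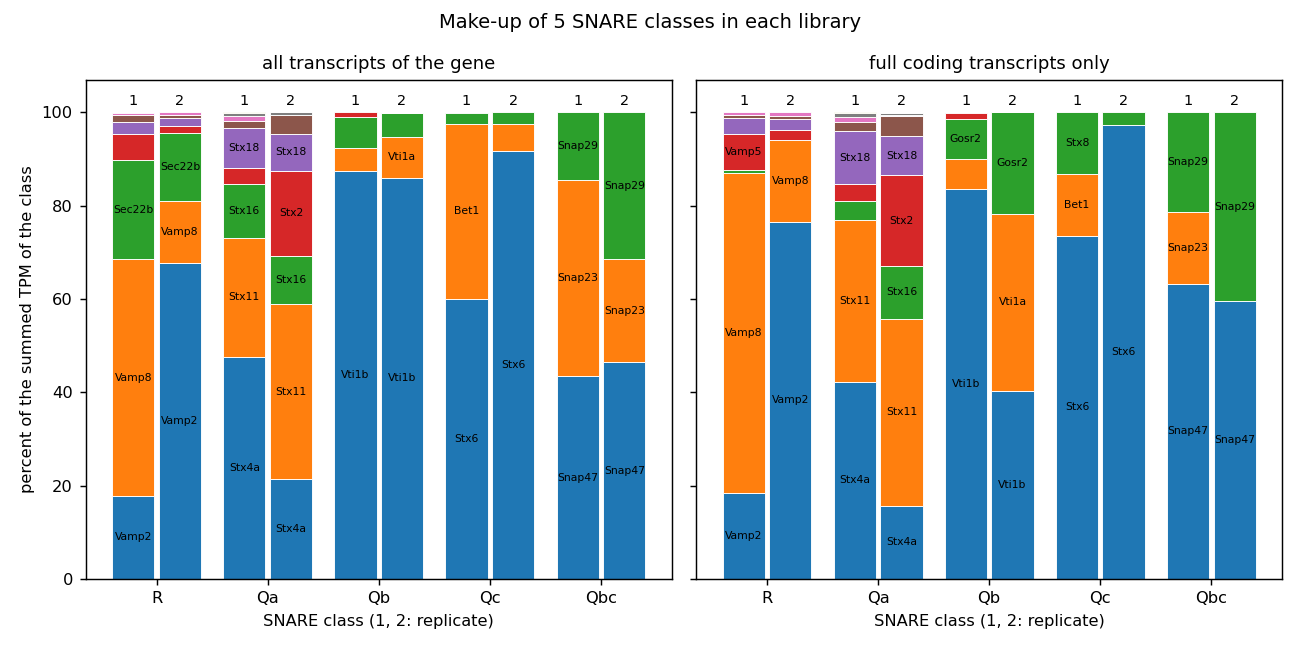
Share of each member in the summed TPM of its SNARE class (percent, bars from 0), with 1 bar for each replicate, from all transcripts of a gene (left) and from its full coding transcripts (right). Vamp8 takes 50.7% of the R class in replicate 1 and Vamp2 takes 67.6% in replicate 2, and in the left panel Vti1b takes over 85% of the Qb class in both bars.

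The Munc18 and Munc13 group held the highest members. Stxbp2, also called Munc18-2, the partner of syntaxin 11 in granule release, was listed at 655 TPM in replicate 1 and 553 TPM in replicate 2. It ranked 260 among the 9858 detected genes. Unc13d, or Munc13-4, which tethers and primes secretory granules, was listed at 211 and 416 TPM and ranked 506. Both were close to even in scaled counts over all forms, with ratios of 0.834 (0.768 to 0.904) for Stxbp2 and 1.22 (1.14 to 1.3) for Unc13d. Over full coding forms alone the ratio was 0.505 (0.431 to 0.588) for Stxbp2, near the 2-fold line, and 1.18 (1.1 to 1.27) for Unc13d. The Unc13d difference in TPM came from 1 short form: Unc13d-206, 353 bases long, was given 94.02 counts in replicate 2 and none in replicate 1, and these made up 59.1% of the gene's TPM there. The full coding forms of Unc13d were nearly equal at 118.5 and 118 TPM. Stxbp5, or tomosyn, which binds syntaxins in place of a VAMP, was listed at 16.6 and 16.4 TPM, with a ratio of scaled counts of 1.16 (0.971 to 1.38).

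The paralogs of these proteins described here were far lower. Stxbp3, the Munc18 that binds syntaxin 4, was listed at 5.53 TPM in replicate 1 and 2.63 TPM in replicate 2. Unc13a and Unc13b, the synaptic Munc13 proteins, were listed at 8.61 and 11.1 TPM and at 0.54 and 3.08 TPM. Unc13c had no counts in either library.

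NSF is the ATPase that separates used SNARE complexes, and its adaptors alpha-SNAP (Napa) and gamma-SNAP (Napg) recruit it. Napa was listed at 154 TPM in replicate 1 and 328 TPM in replicate 2, 2.32-fold higher in scaled counts (2.1 to 2.57). Under total counts the ratio was 1.72 and with the GC trend removed it was 1.96, so Napa stands near the 2-fold line. Napg was listed at 4.48 and 0.16 TPM from 380 counts and 1 count, a ratio of scaled counts of 0.066 (0.00167 to 0.37). Nsf itself was listed at 10.6 and 9.65 TPM, but its scaled count was 2.4-fold lower in replicate 2 (1.62 to 3.72). In replicate 2 the retained intron form Nsf-210, 671 bases long, was given 6.49 counts and 69.2% of the gene's TPM, and the full coding form Nsf-202 stood at 1.56 TPM, beside 10.4 TPM in replicate 1. Napb, the beta-SNAP of neurons, had no counts in either library.

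Of the pair of RAB27 GTPases, Rab27b was the more abundant and the more even. Rab27b, the main RAB27 of platelet dense granules, was listed at 100.02 TPM in replicate 1 and 104 TPM in replicate 2, with a ratio of scaled counts of 1.22 (1.11 to 1.33), which became 2.08 with the GC trend removed. Rab27a, the form known from melanosomes and cytotoxic granules, was listed at 33.9 and 3.21 TPM and was 6.5-fold lower in scaled counts (3.93 to 11.6). Rab27b thus stood 2.95 times above Rab27a in replicate 1 and 32.4 times in replicate 2. Most of Rab27a in replicate 1 was the retained intron form Rab27a-202, at 71.7% of the TPM, and the full coding forms of Rab27a stood at 9.45 and 2.48 TPM. The RAB27 effectors of the Sytl family on the list were low. Sytl1, or Slp1, was listed at 5.76 and 0.34 TPM from 389 counts and 1 count, a ratio of scaled counts of 0.0644 (0.00163 to 0.361). Sytl4, or granuphilin, was listed at 1.82 TPM from 102 counts and at 0 in replicate 2, at least 1.36-fold lower when 3 counts are set in that library.

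Among the SNAREs of the Golgi and endosomes, Vti1b, a Qb SNARE of late endosomes, was highest at 98.1 TPM in replicate 1 and 78.02 TPM in replicate 2, with a ratio of scaled counts of 0.729 (0.611 to 0.863). Within that near balance the authors' quantifier divided the fragments differently between 2 forms. The full coding form Vti1b-201 was given 3853 counts in replicate 1 and 21.44 in replicate 2, 7.17-fold lower after scaling (4.78 to 11.8). The form Vti1b-203, annotated as a target of nonsense mediated decay (the removal of messages with an early stop codon), was given 928 counts in replicate 1 and 118 in replicate 2, 3.17-fold higher after scaling (2.61 to 3.86). All 1059 bases of Vti1b-203 lie within exons of the full coding form, so a read in shared bases could come from either form. The intervals do not cover the error of that division, and an exchange of forms was not tested. Within the coding part of Vti1b-201, the difference between the forms is exon 2 of 6, at chr12:79166351-79166409 (-) on GRCm38. It is 59 bases long, which leaves a remainder of 2 on division by 3, so its absence shifts the reading frame. The exon is shown here in capitals between 30 coding bases of each neighbouring exon, with introns left out.
Vti1b-201: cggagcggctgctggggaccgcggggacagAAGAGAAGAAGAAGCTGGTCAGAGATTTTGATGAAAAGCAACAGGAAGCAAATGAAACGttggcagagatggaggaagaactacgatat
Vti1a, the Golgi paralog and the partner of Stx6 and Stx16, has 1 annotated form and was listed at 5.51 and 8.1 TPM, a ratio of scaled counts of 1.74 (1.27 to 2.32).

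The SNAREs of traffic between the endoplasmic reticulum and the Golgi were lower in replicate 2 or even. Sec22b, an R-SNARE of that step, was listed at 70.3 TPM in replicate 1 and 35.0 TPM in replicate 2, 2.13-fold lower in scaled counts (1.51 to 3.13), and its ratio was 0.773 with the GC trend removed. Bet1, its Qc partner, was listed at 66.3 and 9.08 TPM from 823 and 7 counts, 4.69-fold lower (2.27 to 11.7). Ykt6, an R-SNARE held by lipid anchors, was listed at 8.45 and 4.05 TPM, with a ratio of 0.566 (0.334 to 0.901). Gosr2, or membrin, was listed at 7.55 and 4.66 TPM, with a ratio of 0.73 (0.478 to 1.07). Gosr1, or GS28, was listed at 1.12 TPM from 183 counts and at 0 in replicate 2, at least 2.43-fold lower when 3 counts are set in that library.

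Across the list, 31 members had a mean count of at least 100 and could be called. In replicate 2, 3 of the 31 were at least 2-fold higher (Stx2, Vamp2 and Napa), where 15.7% of all 8194 genes past the same minimum were. Another 14 were at least 2-fold lower, or 45.2%, where 33.8% of all genes were, and 14 were within 2-fold. The median log2 ratio was -0.58 for the members and -0.30 for all genes counted. The counting interval lay wholly past 2-fold for all 3 higher members and for 8 of the 14 lower ones: Vamp5, Vamp8, Stx4a, Snap23, Napg, Rab27a, Sytl1 and Bet1. A count minimum favours genes that are high in the deeper library, so the calls were repeated for members with a mean of at least 10 CPM. Of 25 such members, 3 were higher, where 20.1% of all 5926 genes were, and 8 were lower (32%), where 24.1% of all genes were. The 6 members lost from the lower calls all had 5 counts or fewer in replicate 2. Removing the trend of the ratio with GC content moved the ratios of Vti1a (2.29), Stx12 (2.11), Rab27b (2.08) and Stxbp5 (2.03) past 2-fold higher and took 4 members out of the lower calls. Of the 17 members past 2-fold, 11 stayed past it in the same direction under all 4 other scalings.

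**Figure D3:**
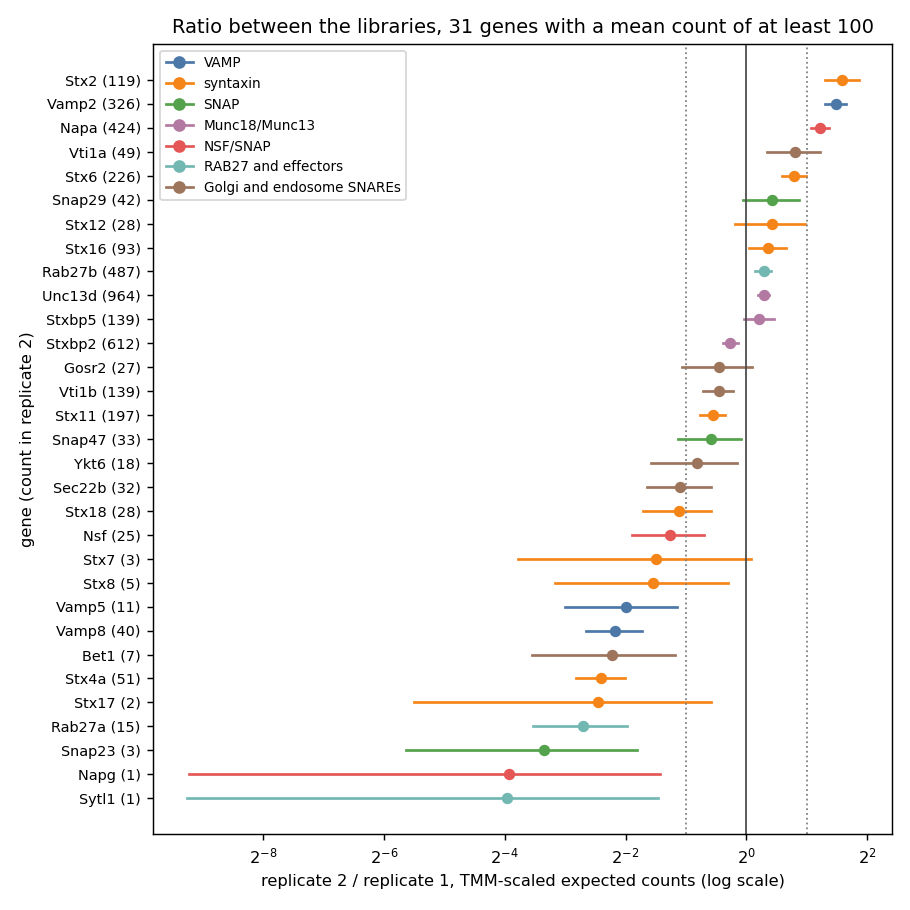
Ratio of replicate 2 to replicate 1 in TMM-scaled expected counts (log axis) for the 31 members with a mean count of at least 100, with exact 95% counting intervals, colours for roles and the count in replicate 2 in brackets. Dotted lines mark 2-fold. Stx2, Vamp2 and Napa lie past the upper line, and the widest intervals belong to Sytl1 and Napg, with a count of 1 each.

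By role, most groups had only 3 counted members, so the calls describe single genes. Among all genes past the same minimum 15.7% were higher and 33.8% lower. The Munc18 and Munc13 group, in which tomosyn (Stxbp5) was also placed, was within 2-fold for 3 of 3 members. Its median log2 ratio of 0.21 was that of Stxbp5. The syntaxins had 1 higher and 5 lower of 10 counted, the VAMP group 1 higher and 2 lower of 3, and NSF with its adaptors 1 higher and 2 lower of 3. The RAB27 group had 2 lower of 3, the SNAP group 1 lower of 3, and the Golgi and endosome SNAREs 2 lower of 6. With a mean of at least 10 CPM, the syntaxins had 1 higher and 2 lower of 7, and NSF with its adaptors 1 higher and 1 lower of 2. The RAB27 group then had 1 lower of 2 and the SNAP group 0 of 2, while the other groups kept their calls. At that level 20.1% of all genes were higher and 24.1% lower. Across all 36 members, log2(TPM + 1) in the libraries correlated with Pearson's r of 0.895 and Spearman's rho of 0.888, a description across genes that share both libraries. Over all 9858 detected genes the values were 0.816 and 0.764.

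Several of the highest members owed most of their TPM to annotated forms that do not encode the whole protein. A form was called full coding when it was annotated as protein coding and its coding part was at least 80% as long as that of the gene's principal form. Of the 33 detected members, 10 (30.3%) had less than 50% of their TPM in full coding forms in each library. Among all detected protein coding genes 30.3% did in replicate 1 and 33.4% in replicate 2, so the share among the members is close to that of genes in general. Short forms weigh more in TPM than in counts, because TPM divides by length.

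Stxbp2, the member with the highest mean TPM, was among them. Its full coding forms held 18.8% of its TPM in replicate 1 and 9.61% in replicate 2, from 8394 and 169 counts, and the corresponding levels were 123 and 53.1 TPM. Most of the rest lay in Stxbp2-204, annotated as a target of nonsense mediated decay, with 28.1% and 26.2% of the TPM, and in the retained intron forms Stxbp2-208, with 20.2% and 23.4%, Stxbp2-212, with 16.1% and 29.1%, and Stxbp2-214, with 14.5% and 9.46%. Stxbp2-208 overlaps the last 4 of 19 exons, from exon 16 on, and Stxbp2-212 the last 3. Each begins inside the intron before them, so only its first 274 or 123 bases lie outside the exons of the full coding forms.

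Napa and Stx6 also carried most of their TPM in short forms that overlap the last exons. Napa-206, a retained intron form of 495 bases, overlaps the last 3 of 11 exons and begins 99 bases earlier in the intron. It held 78.9% and 77.4% of the TPM of Napa but 37.4% and 38.7% of its count. Stx6-208 is a processed transcript of 711 bases with no annotated coding part. After a first exon of its own of 308 bases it overlaps the last 2 of 8 exons, with 403 bases inside full coding exons. It held 84.3% and 93.1% of the TPM of Stx6 and 61.5% and 63.2% of its count. The stretches that tell these forms from the full coding ones are given below from GENCODE M21 on GRCm38, as the last 60 bases outside the full coding exons, in capitals, followed by 30 shared coding bases. They lie at chr8:3641675-3641764 (+) for Stxbp2-212, chr7:16115143-16115232 (+) for Napa-206 and chr1:155195269-155197370 (+) for Stx6-208, the last across 1 intron that is left out.
Stxbp2-212: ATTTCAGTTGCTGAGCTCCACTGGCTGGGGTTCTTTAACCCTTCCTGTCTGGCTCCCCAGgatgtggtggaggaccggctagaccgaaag
Napa-206: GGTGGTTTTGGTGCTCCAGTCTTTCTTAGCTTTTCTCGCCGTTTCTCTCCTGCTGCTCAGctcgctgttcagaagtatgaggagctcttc
Stx6-208: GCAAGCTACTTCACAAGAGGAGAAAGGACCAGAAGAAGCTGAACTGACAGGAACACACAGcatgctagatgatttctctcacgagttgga
In Stxbp2-212 and Napa-206 the capitals run straight into the exon in the genome, and a read that lies wholly in the shared bases could come from either form.

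Bet1 and Sec22b carried most of their TPM in short forms that overlap the first exons. Bet1-202, a processed transcript that overlaps the first 2 of 4 exons, held 97.1% and 93.1% of the TPM of Bet1. The full coding form of Bet1 stood at 1.92 TPM in replicate 1 and at 0 in replicate 2. Sec22b-203, a partial form that overlaps the first 2 of 5 exons, held 88.7% and 100% of the TPM of Sec22b. The full coding form of Sec22b stood at 2.03 TPM and at 0. Ordered by the TPM of full coding forms alone, Stx6 went from place 4 to place 16 among the 36 members, Sec22b from 11 to 32 and Bet1 from 12 to 33. The first 7 places then went to Unc13d (mean 118 TPM), Rab27b (102), Vamp8 (99.3), Vamp2 (92.3), Stxbp2 (88.2), Stx11 (68.4) and Stx4a (62.3), and 9 of the first 10 by gene level or full coding level were shared. Unc13d and Rab27b were the most even of these, with SDs of 0.354 and 2.76 TPM over the 2 libraries, beside 95.1 for Vamp8 and 66.7 for Vamp2.

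**Figure D4:**
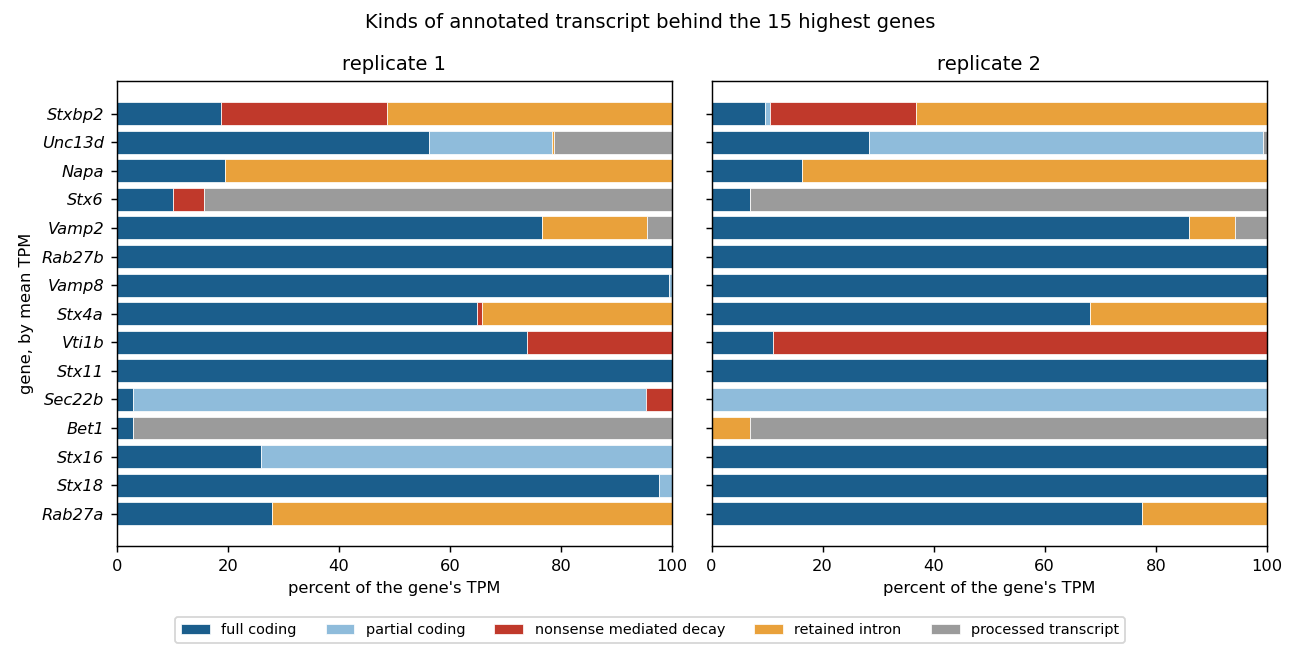
Percent of a gene's TPM in each kind of annotated transcript for the 15 members with the highest mean TPM, in replicate 1 (left) and replicate 2 (right). Rab27b, Vamp8 and Stx11 are nearly all full coding in both panels, Napa, Stx6 and Bet1 are mostly not, and Vti1b turns from 73.9% to 11.0% full coding.

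The form with the highest TPM was the same in both libraries for 16 of the 24 members that had at least 2 annotated forms and a mean of at least 5 TPM. Among all 4695 such genes the share was 66.2%. The 8 that differed were Stx4a, Stx16, Snap23, Stxbp2, Unc13d, Nsf, Rab27a and Vti1b. In replicate 1 the leading form was not full coding in 8 of the 24 members, and in replicate 2 in 9, where 41.7% and 45.7% of all such genes had a leading form of that kind. Stx4a changed between forms that encode the same length of protein, from Stx4a-201 with 73.6% of the count in replicate 1 to Stx4a-202 with 47.7% in replicate 2.

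The labelled cell type was checked against its markers, and other blood cells were looked for. All 12 megakaryocyte markers were detected, from Gp6 at a mean of 11.4 TPM to Gp1bb at 5861, and their summed TPM was 18456 in replicate 1 and 26727 in replicate 2. Neutrophil and promyelocyte markers were also present, 9 of 10 at a mean of at least 1 TPM, with sums of 862 and 150 TPM, and all 7 that could be counted were at least 2-fold lower in replicate 2. Macrophage markers behaved likewise, with 8 of 11 detected, sums of 879 and 229 TPM, and 8 of 8 counted lower, Timd4 being at 0. For mast cells, basophils and eosinophils 5 of 10 markers were detected, the sums were 52.5 and 5.48 TPM, 3 of 3 counted were lower, and Fcer1a and Mcpt4 were at 0. Among all genes past the same count minimum 33.8% were lower, and that minimum favours genes that are high in replicate 1. With a mean of at least 10 CPM, 5 of 5 neutrophil, 6 of 6 macrophage and 2 of 2 mast cell list markers were lower. Of all genes past that level, 24.1% were lower. Of these other lists the highest and lowest markers by mean TPM were Prtn3 and Ltf, C1qc and Timd4, and Prss34 with Fcer1a and Mcpt4. Myeloid cells are known to express several of the members, among them Vamp8, Stx4a, Snap23 and Rab27a, which were at least 2-fold lower in the same library, and Stxbp2, Unc13d and Stx11, which were within 2-fold. The part of other cells in these differences was not tested, and in bulk RNA fewer cells of a type and less RNA per cell cannot be told apart. Of the 12 megakaryocyte markers themselves, 4 were higher in replicate 2, where 15.7% of all genes counted were, and 2 (Pf4 and Ppbp) were lower.

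Cytotoxic lymphocytes, whose granules use Rab27a, Unc13d, Stx11 and Stxbp2, were nearly absent. Prf1, Gzma, Cd3e, Klrb1c, Ncr1 and Eomes had 0 counts in both libraries, Gzmb had 32 counts in replicate 1 and 0 in replicate 2, and Nkg7 was listed at 5.59 and 2.21 TPM. Endothelial markers were detected for 2 of 6 (Esam and Egfl7, with Robo4 at 0), with sums of 102 and 31.8 TPM. Erythroid markers were detected for 5 of 7 with a row, led by Hba-a1, with Rhag at 0, and their sums were 6356 and 13414 TPM. Hba-a1 made up most of these sums, at 4480 and 12715 TPM, while Hbb-bt was listed at 1719 and 513 TPM, 2.88-fold lower in scaled counts in replicate 2.

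**Figure D5:**
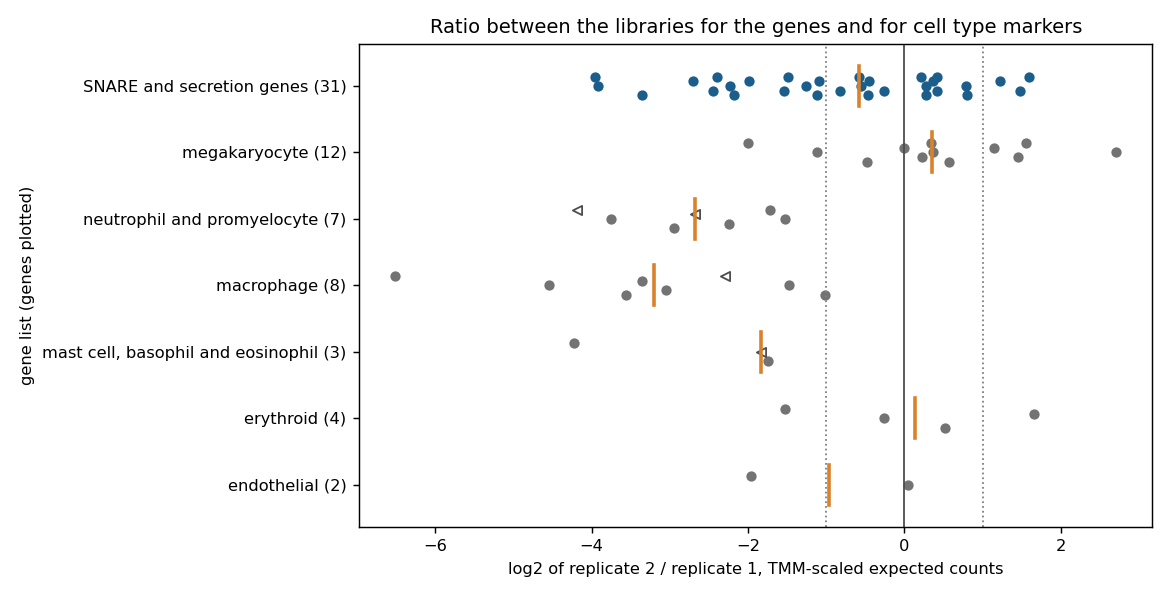
Log2 ratio of replicate 2 to replicate 1 in TMM-scaled expected counts for each gene with a mean count of at least 100, in the members and in lists of cell type markers. Bars are medians, open triangles are genes with 0 counts in replicate 2 set to 3 counts, and dotted lines mark 2-fold. All neutrophil and macrophage markers shown lie past 2-fold lower, while the members spread from -3.96 to 1.59.

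Other genes of the secretory pathway were mostly at lower levels than the members. Of 70 such genes in 5 lists, 31 reached a mean of 1 TPM. Of 23 that could be counted 3 were at least 2-fold higher and 7 lower in replicate 2, where 15.7% and 33.8% of all genes were. With a mean of at least 10 CPM, 3 of 13 were higher and 0 lower, where 20.1% and 24.1% of all genes were. Among 12 other SNAREs, 7 were detected. The highest was Use1, a SNARE of the endoplasmic reticulum, at 245 TPM in replicate 1 and 140 TPM in replicate 2, above every SNARE on the member list in replicate 1. It was followed by Stx5a, the Golgi syntaxin, at 18.5 and 35.1 TPM, and Bnip1 at 25.5 and 9.19 TPM. Snap25, the neuronal paralog of Snap23, was listed at 0.12 TPM and 0, and Vamp1, the paralog of Vamp2, at 1.34 and 2.6 TPM. Stx19 had no counts.

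Among 16 other SM and priming proteins 9 were detected, led by Vps45, the partner of Stx16, at 18.6 and 19.7 TPM, then Unc13a and Stxbp3. Stxbp5l, Cadps and Cadps2 had no counts in either library. Vps33a and Vps33b, core subunits of complexes in endosome and granule formation, were listed at 3.54 and 0 TPM and at 4.78 and 1.74 TPM. Of 9 other genes listed as RAB27 effectors or their partners only Myo5a, a partner myosin motor, was detected, at 10.3 TPM and 0. Sytl2 and Sytl3, the paralogs of Sytl1, were listed at 0.25 and 0.35 TPM in replicate 1 and at 0 in replicate 2. Sytl5 and Mlph had no counts.

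Among 24 calcium sensors and complexins, 6 were detected and 11 had no counts in either library, namely Syt1, Syt3, Syt4, Syt6, Syt9, Syt10, Syt12, Syt15, Syt17, Cplx4 and Doc2b. The highest was Syt13, a synaptotagmin that does not bind calcium, at 38.1 and 42.2 TPM, followed by Syt11 at 10.5 and 17.1 TPM and Cplx2, a complexin that clamps SNARE complexes, at 12.5 and 8.11 TPM. Of 9 genes listed for the exocyst, which tethers vesicles to the plasma membrane, 8 were detected. Exoc3l, a paralog of the subunit Exoc3, was far above the others at 61.0 and 123 TPM, 2.39-fold higher in scaled counts in replicate 2. The highest subunits were Exoc6 at 16.4 and 8.97 TPM and Exoc4 at 8.09 and 10.8 TPM.

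Some members share exon bases with a gene on the opposite strand, and the sources used here do not state whether counting used strand. Stx18 shares 908 bases with Gm42858, for which no level was found, and 574 bases with Nsg1, listed at 0 in both libraries. Snap29 shares 60 bases with Pi4ka, listed at 18.4 and 6.28 TPM. The partner of Vti1b (Arg2, 285 bases) was listed at 0.41 TPM in replicate 1 and at 0 in replicate 2.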

How the data were processed

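Polyadenylated RNA of 2 megakaryocyte libraries was used. The authors deposited a gene table and a transcript table per library, and the file lists beside them name mm10 and GENCODE M4. For the aligner and quantifier, names are not given in the sources used. Per the file headers, the deposited values are expected counts (estimated fragments that need not be whole), TPM and FPKM, with posterior means of TPM. Rows with numeric identifiers (26248) and 97 other rows were left out. Symbols came from a table of Ensembl identifiers, and positions, kinds of transcript and sequences from GENCODE M21 on GRCm38, the assembly of mm10. All 191 transcripts of the members were found there, 176 of them at the same length. Coding sequences were aligned with MAFFT.

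Expected counts were rounded, and edgeR 4.0.16 gave TMM factors of 1.16 and 0.859 over genes whose counts averaged 10 or more, and size factors of DESeq2 1.42.0 served as an alternative. Ratio intervals are Clopper-Pearson at 95%. Scripts used Python 3.11.15, and the ratio step was tested on simulated data. The simulated counts held counting error alone. Changes were set only in genes with high counts in replicate 1, so members with few counts were not covered. With 1 group no test between groups was made. All members are given. Of the other lists the text names the 3 highest genes, genes at 0, paralogs of members, and the highest and lowest markers. Some genes that this rule covers are not reported here. Vps33a, Vps33b, Pf4, Ppbp, Gzmb, Nkg7, Esam, Egfl7 and Hbb-bt were named after their values were seen. The members, lists and rules were chosen with earlier results of these data known, and the rule for full coding forms was added after the files were read.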

Additional observations from a re-analysis of the deposited data

How the results depend on the processing

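The count of detected members (33) ran from 26 at a mean of 5 TPM to 35 under posterior mean TPM, and from 29 to 35 when 1 library was left out. The count of members at least 2-fold lower (14) was 8 with a mean of at least 10 CPM and between 10 and 16 otherwise. The count of members at least 2-fold higher (3) was 6 with the GC trend removed, when Stx12, Stxbp5, Rab27b and Vti1a joined and Napa left, and 2 or 3 otherwise. Of 154 ratios of single members under other scalings or full coding forms, 137 kept their call, 8 lost it, 8 gained one and 1 reversed: Stx16, at 0.358 by TPM. The share of Vti1b in the Qb class (86.7%) was 85% by posterior mean TPM, 68.6% by expected counts and 62% by full coding forms. The share of Snap47 in the Qbc class (44.9%) was 47.9% by posterior mean TPM and 61.4% by full coding forms. The cause was not tested. With 1 library left out, the shares of Vamp2, Vamp8, Stx4a, Stx11 and Stx6 took the single-library values given above. A leave-one-out ratio cannot be formed from 2 libraries. No paired analysis was possible because there is 1 group. At the depth of replicate 2, a member with 0 counts could still stand at up to about 1.32 CPM. Of the 14 members called lower, 5 rested on at most 3 counts in that library.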
